A study of Rattus norvegicus with 4 samples.

Results

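Neuregulin-ErbB genes and 3 genes set beside them as a repair Schwann cell group (Pou3f1, Gpr83 and Cthrc1) were described across spatial transcriptomes of the rat trigeminal nerve. The 9 members were taken by symbol: the ligand genes Nrg1, Nrg2 and Nrg3, the receptor genes Erbb2, Erbb3 and Erbb4, and Pou3f1, Gpr83 and Cthrc1. Of these, 8 were found among the 32623 features of the count table. Nrg3 was not matched there and is given no value. The members had been picked with their levels in these samples in view, so their TN and HC levels are a description and carry no test.

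Trigeminal neuralgia (TN) was modelled in wild type rats by compressing the trigeminal nerve root on one side, and the methods name adult male Sprague-Dawley animals. Root, semilunar ganglion and proximal branches of the compressed side filled 3 capture areas of a Visium slide, 1 animal each (TN1, TN2 and TN3). The healthy control area (HC) held tissue of 2 animals, so it counted as 1 sample. The series text takes HC from the uncompressed side of TN animals whereas the methods describe sham-operated controls, and these cannot be told apart here. Each capture area is a grid of spots, a spot can hold several cells, and unique molecular identifiers (UMIs) count its captured transcripts. Total UMIs ranged from 23546025 (TN1) to 41335930 (HC) over 1256 (TN2) to 2013 (HC) spots, and median UMIs per spot from 9487 in TN1 to 30808 in TN2. The mitochondrial share was 11.6% in TN1 and 5.90% to 7.81% in the other areas.

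Neuregulins are growth factors with an EGF-like domain. Nrg1, made by sensory neurons, reaches Schwann cells through ErbB3, which binds the ligand but has little kinase activity of its own, and ErbB2, which binds no ligand and supplies the kinase. This pair controls Schwann cell survival, migration and myelin thickness, and Schwann cells that lose their axon make neuregulin of their own for a while after nerve injury. Erbb4 is a further neuregulin receptor, found more in the central nervous system and heart. Pou3f1 (Oct6) is the transcription factor of Schwann cells about to myelinate. Gpr83 is a G protein-coupled receptor, and Cthrc1 is a secreted glycoprotein of cells that remodel collagen.

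Of the members, Erbb2 and Gpr83 are shown by their RefSeq start-site windows, 250 bases before to 50 after the start on the GRCr8 build, as the receptor gene that stayed near or below HC in TN1 and as the member whose TN areas differed most from each other over all spots and in the nerve. The Erbb2 window lies at chr10:83907351-83907650 and the Gpr83 window at chr8:19974745-19975044, both on the plus strand. Capitals mark the 1 motif found in each, a GC box (GGGCGG) in Erbb2 and a TATA box (TATAAA) in Gpr83.
Erbb2: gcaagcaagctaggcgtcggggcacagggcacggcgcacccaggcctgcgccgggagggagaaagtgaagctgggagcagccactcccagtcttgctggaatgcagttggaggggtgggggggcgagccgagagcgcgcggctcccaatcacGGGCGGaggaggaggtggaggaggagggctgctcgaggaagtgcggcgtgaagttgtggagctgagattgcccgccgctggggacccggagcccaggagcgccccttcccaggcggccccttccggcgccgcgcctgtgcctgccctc
Gpr83: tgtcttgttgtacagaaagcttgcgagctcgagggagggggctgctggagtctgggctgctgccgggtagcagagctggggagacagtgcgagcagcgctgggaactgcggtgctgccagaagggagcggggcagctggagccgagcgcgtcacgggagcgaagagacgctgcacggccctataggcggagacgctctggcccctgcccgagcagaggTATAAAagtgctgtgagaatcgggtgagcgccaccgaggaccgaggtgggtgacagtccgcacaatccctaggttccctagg
The GC box began 98 bases before the Erbb2 start and the TATA box 32 bases before the Gpr83 start. On both strands together, GGGCGG was found in 34.9% and TATAAA in 14.3% of all 27457 windows of this length. The AP-1 letters TGACTCA or TGAGTCA, in 4.53% of all windows, were in neither window. No entry of this kind was matched for Nrg1, Erbb3, Pou3f1 or Cthrc1.

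Spots were put into regions by clustering with the members left out, and each cluster was named from a marker list. The ganglion region, with sensory neuron markers, held 272, 298 and 332 spots in the TN areas and 593 in HC. It included a cluster of 71, 116 and 51 TN spots and 4 HC spots led by Csrp3, Gal, Vip and Reg3b, with no gene of the sensory neuron list among its 10 leading genes. The peripheral nerve region, with Prx, Pmp2 and Cldn19 among its leading genes, held 402, 226, 486 and 206 spots. The connective tissue region, led by Mgp and Cemip, held 187 spots in TN2 and 317 in TN3 but 17 in TN1 and 8 in HC, so it is described in TN2 and TN3 only. Gpr83 and Cthrc1, which took no part in the clustering, were themselves among its 10 leading genes. Both genes were higher in TN2 and TN3 than in TN1 and HC in other regions too. Nearly all spots of the connective tissue region came from TN2 and TN3, so its leading genes follow the area as well as the tissue. Its spots also held Schwann cell transcripts, with Sox10, a transcription factor of Schwann cells and satellite glia, at 328 CPM in TN2 and 375 CPM in TN3 (CPM, the UMIs of a gene scaled to a common total of all UMIs in the region). In such sums, fewer cells of a type and less RNA per cell cannot be told apart.

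Among the ligand genes, Nrg1 was measured at 1324 UMIs and Nrg2 at 470 in all spots. Nrg1 was at 18.96, 11.1 and 16.1 CPM in the TN ganglia (TN1, TN2, TN3) and at 15.6 CPM in HC. The HC level lay inside the TN range, and the fitted log2 difference, TN minus HC, was -0.07 ± 0.34 (SE, 3 TN areas and 1 HC area). In the peripheral nerve, Nrg1 was at 2.97, 5.16 and 2.37 CPM in the TN areas and at 10.6 CPM in HC, a fitted log2 difference of -1.67 ± 0.51. All 3 TN areas thus lay below HC in the nerve, on 10, 36 and 16 UMIs against 36. Over all genes tested in the nerve, 36% had all 3 TN areas below HC.

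The nerve spots of HC also carried more neuronal RNA. The sensory neuron list (Calca, Tac1, Prph, Avil, Scn10a and others, 12 genes) summed to 8881 CPM there and to 1913, 3147 and 1397 CPM in the nerve of TN1, TN2 and TN3. Of its 11 genes tested in the nerve, all had a fitted difference below 0, with a median of -2.14 on the log2 scale against 0.05 over all genes. The part of this in the nerve levels of Nrg1 and of the other members was not tested. Among those others, Erbb2, Erbb3 and Pou3f1 were lower in the ganglion than in the nerve in every area. In the ganglion the list summed to 13812 CPM in HC and to 9693 to 11481 CPM in the TN areas.

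Nrg1 was higher in the ganglion than in the nerve in all 4 areas, by 6.38, 2.16, 6.79 and 1.47 times in TN1, TN2, TN3 and HC. Within the ganglion, spots were ordered in each area by their share of sensory neuron list UMIs and cut into tertiles. Nrg1 in the upper tertile was 1.55, 1.81 and 1.15 times that of the lower tertile in TN1, TN2 and HC, and 0.92 times in TN3. Over 28 sums of a region in an area, the genes whose log2 CPM followed Nrg1 most closely were Impdh1 (r = 0.95), Pqlc1 (r = 0.95) and the neurofilament gene Nefm (r = 0.94). These 28 sums share libraries, depth and spot makeup, so the correlation is a description. Nrg2, a related ligand, was at 6.23, 3.94 and 4.28 CPM in the TN ganglia and at 4.56 CPM in HC. In the nerve, Nrg2 rested on 2, 12 and 13 UMIs in TN against 12 in HC.

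**Figure D1:**
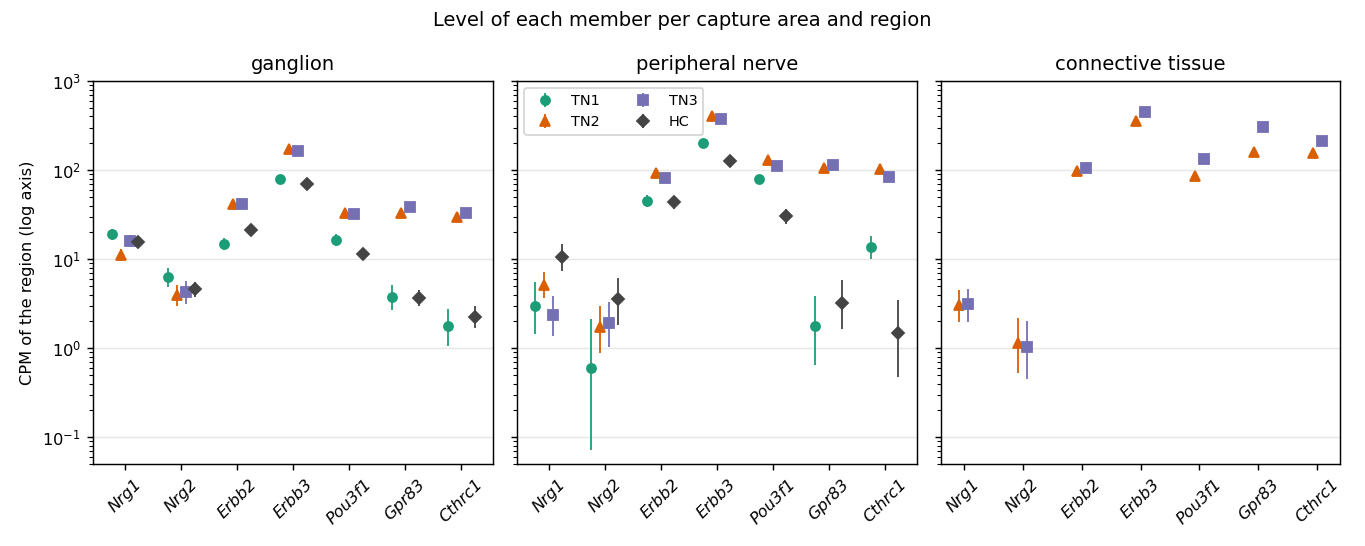
Level of each member as CPM (log axis) in the ganglion, peripheral nerve and connective tissue regions, 1 point per capture area, with bars for the exact 95% Poisson interval of the count, which covers counting error only. Regions with under 20 spots in an area are left out. In the nerve, Erbb3 and Pou3f1 of the 3 TN areas lie above HC, while Gpr83 of TN1 lies near HC and those of TN2 and TN3 lie far above.

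Erbb3 was the most abundant member, with 23928 UMIs. In the ganglion it was at 80.0, 172 and 165 CPM in TN1, TN2 and TN3 and at 70.4 CPM in HC. In the nerve it was at 202, 409.9 and 372 CPM in the TN areas and at 125 CPM in HC. All 3 TN areas were above HC in both regions, with TN1 nearest to it, as held for 30.3% of all genes tested in the ganglion and 34% in the nerve. The fitted log2 difference was 0.93 ± 0.45 in the ganglion and 1.304 ± 0.42 in the nerve, and without TN1 it was 1.197 ± 0.17 and 1.56 ± 0.27. In the connective tissue region Erbb3 was at 360 CPM (TN2) and 454 CPM (TN3).

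Erbb2, the kinase partner, had smaller fitted differences between TN and HC. It was at 14.9, 42.1 and 41.8 CPM in the TN ganglia and at 21.3 CPM in HC. In the nerve it was at 44.9, 93.7 and 82.4 CPM in TN and at 43.7 CPM in HC. TN1 thus lay below HC in the ganglion and at the HC level in the nerve, while TN2 and TN3 lay above it in both. The fitted log2 differences were 0.57 ± 0.58 and 0.67 ± 0.40. Within a capture area the 2 receptor genes can be set against each other as UMIs, with no correction for transcript length. There were 4.51, 4.38 and 4.52 Erbb3 UMIs per Erbb2 UMI in the TN nerves and 2.86 in HC. In the ganglion the ratio was 5.38, 4.10 and 3.95 in TN and 3.31 in HC, so HC had the lowest ratio in both regions.

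Both receptor genes were lower in the ganglion than in the nerve in every area. The ganglion level was 0.395 to 0.562 times the nerve level for Erbb3 and 0.331 to 0.507 times for Erbb2. Inside the ganglion region Erbb3 as CPM was lower in the tertile richest in neuronal transcripts than in the poorest. The upper tertile of the sensory neuron list had 0.89, 0.59, 0.68 and 0.88 times the lower tertile's CPM in TN1, TN2, TN3 and HC. Upper-tertile spots were deeper, with median UMIs of 46572 against 31546 in TN1 and 45613 against 33399 in HC. Erbb3 UMIs themselves rose from 242 to 301 in TN1 and from 544 to 642 in HC. They fell from 901 to 696 in TN2 and from 582 to 581 in TN3. Ordered by the peripheral myelin list instead, the upper tertile had 1.37, 1.52, 1.45 and 1.29 times the Erbb3 of the lower. Each tertile pair comes from 1 capture area, and the direction of the CPM ratio was shared by all 4. Across the 28 sums the genes most like Erbb3 were Crip1 (r = 0.98), Rhbdf2 (r = 0.98) and Vwa1 (r = 0.97). Erbb2 was followed by Vwa1 (r = 0.98), Crip1 (r = 0.97) and Erbb3 itself (r = 0.97). Rhbdf2 encodes a carrier of the shedding protease Adam17.

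Erbb4 was barely detected. It gave 8, 4 and 1 UMIs in all spots of the TN areas and 1 in HC, 14 in total, and no UMI in the 593 ganglion spots or the 206 nerve spots of HC. A count of 0 there allows a level of up to 0.123 CPM in the ganglion and 0.886 CPM in the nerve. It passed no filter on low counts, and a difference was not detectable at this depth.

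Pou3f1 was higher in nerve than in ganglion in every area, and in both regions higher in each TN area than in HC. In the nerve it was at 78.5, 131 and 109.9 CPM in TN1, TN2 and TN3 and at 30.4 CPM in HC. In the ganglion it was at 16.5, 32.9 and 31.7 CPM in TN and at 11.6 CPM in HC. The fitted log2 difference was 1.72 ± 0.32 in the nerve and 1.17 ± 0.43 in the ganglion. The ganglion level was 0.211 to 0.380 times the nerve level over the 4 areas. Among ganglion spots, the upper tertile of the peripheral myelin list held 3.26, 1.72, 2.12 and 2.49 times the Pou3f1 of the lower tertile in TN1, TN2, TN3 and HC. Its nearest genes over the 28 sums were Cuedc2 (r = 0.98), Siva1 (r = 0.97) and Gpc3 (r = 0.97).

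Egr2 (Krox20), the myelin transcription factor that follows Pou3f1 in Schwann cell development, was at 34.2, 27.3 and 37.4 CPM in the TN ganglia and at 12.8 CPM in HC, scaled between areas by TMM. Its fitted log2 difference was 1.36 ± 0.25, with an adjusted p of 0.46 from edgeR's quasi-likelihood test over 12782 genes. Mag and Mbp, genes of myelin proteins that Schwann cells share with oligodendrocytes, lay on the other side. They were named because all TN areas lay below HC, and do not stand for the peripheral myelin list. Its upper ganglion tertile summed to 28340, 30145 and 55594 CPM in TN1, TN2 and TN3 and 34236 CPM in HC. In its lower tertile all TN areas were below HC (8446, 8965 and 12786 CPM against 13013 CPM). Mag was at 79.0, 81.3 and 79.1 CPM in TN and 163 CPM in HC, and its adjusted p was 0.36.

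**Figure D2:**
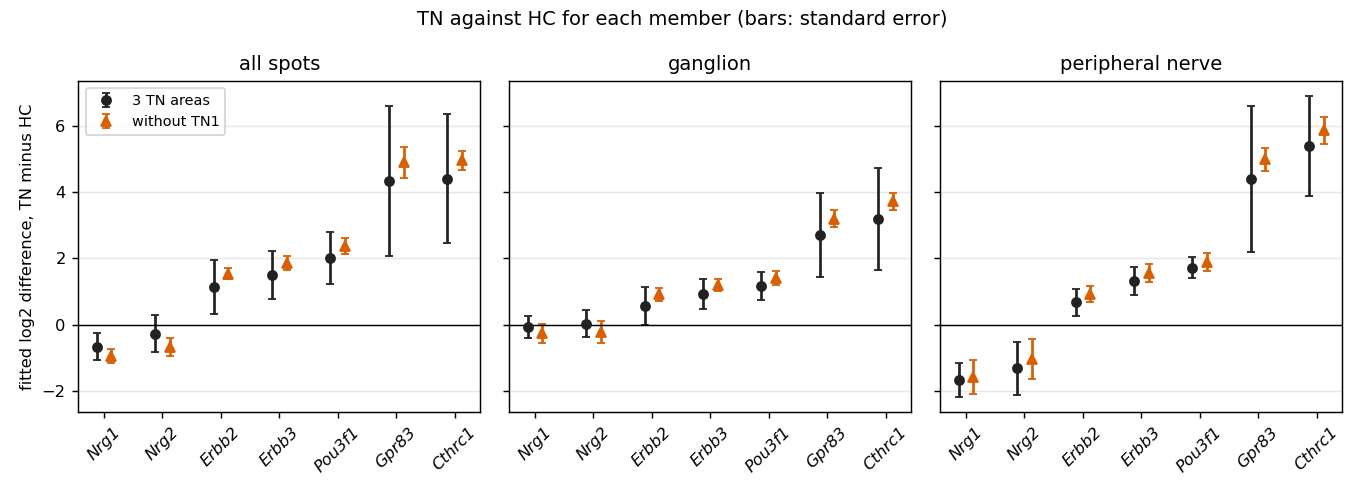
Fitted log2 difference (TN minus HC, edgeR on TMM-scaled UMI sums) of the 7 members that passed the filter on low counts, over all spots, the ganglion and the peripheral nerve, with bars of 1 standard error, with all 3 TN areas (circles) and without TN1 (triangles). In the nerve Pou3f1, Erbb3 and Cthrc1 stand above 0 and Nrg1 and Nrg2 below it, and the bars of Gpr83 and Cthrc1 shorten where TN1 is left out.

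Gpr83 divided the TN areas. In the nerve it was at 1.78 CPM in TN1, 105 CPM in TN2 and 114 CPM in TN3, and at 3.25 CPM in HC. In the ganglion it was at 3.72, 32.8 and 38.5 CPM in TN and 3.70 CPM in HC. TN1 therefore held the HC level or less, and the fitted log2 difference of 4.41 ± 2.20 in the nerve rested on TN2 and TN3, without TN1 being 4.99 ± 0.36. It was highest in the connective tissue region, at 159 CPM in TN2 and 308 CPM in TN3. The TN2 level was 59.0 times the TN1 level in the nerve and 8.81 times in the ganglion.

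Cthrc1 had the same division but with TN1 above HC in the nerve. There it was at 13.7, 103 and 84.1 CPM in TN1, TN2 and TN3 and at 1.48 CPM in HC, where it rested on 5 UMIs. The exact 95% Poisson interval of the TN1 level ran from 10.0 to 18.2 CPM and that of HC from 0.479 to 3.44 CPM, counting error only. In the ganglion it was at 1.77, 29.9 and 32.6 CPM in TN and 2.26 CPM in HC, so TN1 did not lie above HC there. The fitted log2 difference was 5.39 ± 1.51 in the nerve and 3.18 ± 1.54 in the ganglion. In the connective tissue region it reached 156 CPM in TN2 and 211 CPM in TN3. Gpr83 and Cthrc1 were thus higher there than in the peripheral nerve region, and spots of mixed cells do not assign either gene to Schwann cells. Of the nerve spots, 10.0%, 84.1% and 59.5% had a Cthrc1 UMI in the TN areas and 2.4% in HC, which after thinning each spot to 2000 UMIs were 2.2%, 16.8%, 11.8% and 0.5%.

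The division of Gpr83 and Cthrc1 was not particular to nerve tissue. In spots of the blood and bone region, named from hemoglobin, neutrophil and bone genes, Gpr83 was at 45.1 CPM in TN2 and 30.5 CPM in TN3 against 0.90 CPM in TN1 and 2.68 CPM in HC. Cthrc1 there was at 61.9 CPM in TN2, 30.5 CPM in TN3, 1.80 CPM in TN1 and 4.82 CPM in HC. Astrocyte spots gave 63.0 and 92.2 CPM of Gpr83 in TN2 and TN3 against 1.48 and 1.24 CPM in TN1 and HC. Differences of other members were not confined to nerve tissue either. Erbb3 in astrocyte spots was at 53.3, 133 and 142 CPM in TN1, TN2 and TN3 and 26.6 CPM in HC. In the blood and bone region it was at 46.3, 94.1 and 93.0 CPM against 45.8 CPM. Pou3f1 in astrocyte spots was at 4.44, 24.9 and 49.5 CPM against 7.44 CPM, with TN1 below HC. Over the 28 sums Gpr83 was most like Siglec1, a macrophage gene (r = 0.97), Cthrc1 (r = 0.97) and Ugt1a5 (r = 0.95). Cthrc1 was most like Emp1 (r = 0.98), Siglec1 (r = 0.97) and Thbs2 (r = 0.97), the last encoding a matrix thrombospondin.

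Markers of other cells differed between the same areas. In the nerve, the macrophage list (8 genes, Cd68, Csf1r, C1qa and others) summed to 925, 2160 and 1793 CPM in TN1, TN2 and TN3 and to 303 CPM in HC, with all 8 genes detected in every area. The connective tissue list (Dcn, Lum, Col1a1 and others, 7 genes) summed to 7692, 6789 and 6148 CPM in TN and 2813 CPM in HC. In the ganglion it summed to 1147, 3083 and 3010 CPM in TN and 1028 CPM in HC. Within the ganglion, spots in the upper tertile of the connective tissue list had 1.67, 1.82 and 1.86 times the Cthrc1 of the lower tertile in TN1, TN2 and TN3 and 0.76 times in HC. The TN1 ratio rests on 6 against 4 UMIs and the HC ratio on 13 against 29, while each tertile of TN2 and TN3 held over 100 UMIs. The part of these cells in the members' levels was not tested.

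**Figure D3:**
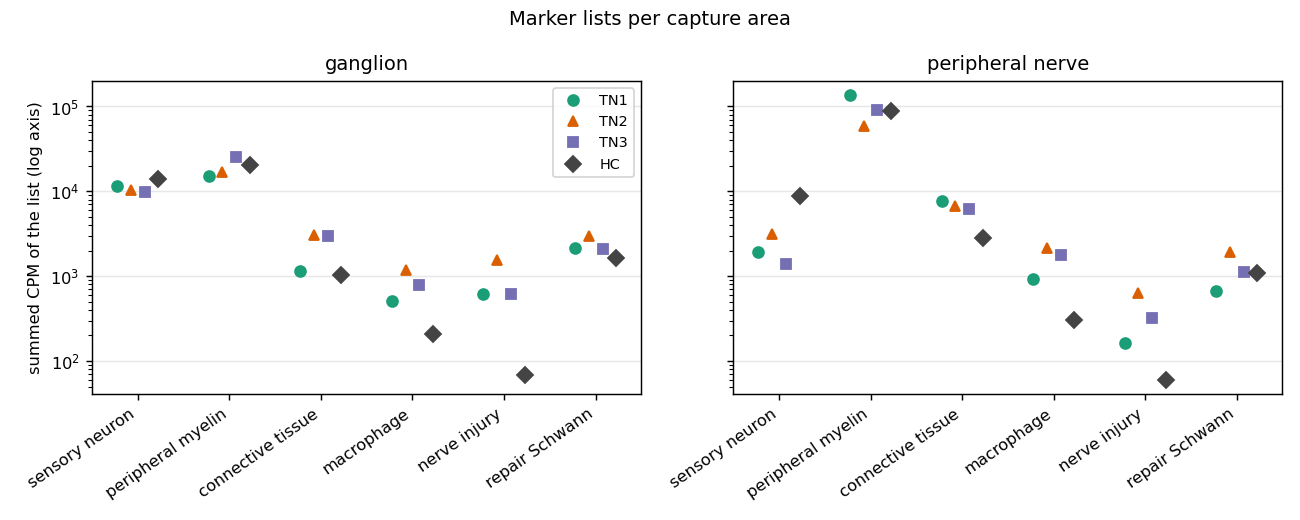
Summed CPM (log axis) of 6 marker lists in the ganglion and peripheral nerve, 1 point per capture area. The sensory neuron list of HC lies above the TN areas in the nerve (8881 CPM against 1397 to 3147), and the macrophage and nerve injury lists of the TN areas lie above HC in both regions.

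Set against Sox10 UMIs of the same spots, the members' order between areas was partly kept. Erbb3 gave 0.728, 1.06 and 1.12 UMIs per Sox10 UMI in the TN nerves and 0.501 in HC. Pou3f1 gave 0.282, 0.337 and 0.330 in TN and 0.122 in HC, so all 3 TN areas stayed above HC. Erbb2 gave 0.161, 0.242 and 0.247 in TN and 0.175 in HC, with TN1 below HC. Cthrc1 gave 0.0492, 0.264 and 0.252 in TN and 0.00590 in HC. Gpr83 gave 0.00642, 0.272 and 0.343 in TN and 0.0130 in HC. In the ganglion Pou3f1 gave 0.144, 0.183 and 0.183 in TN and 0.0935 in HC, again with TN above HC in every area.

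**Figure D4:**
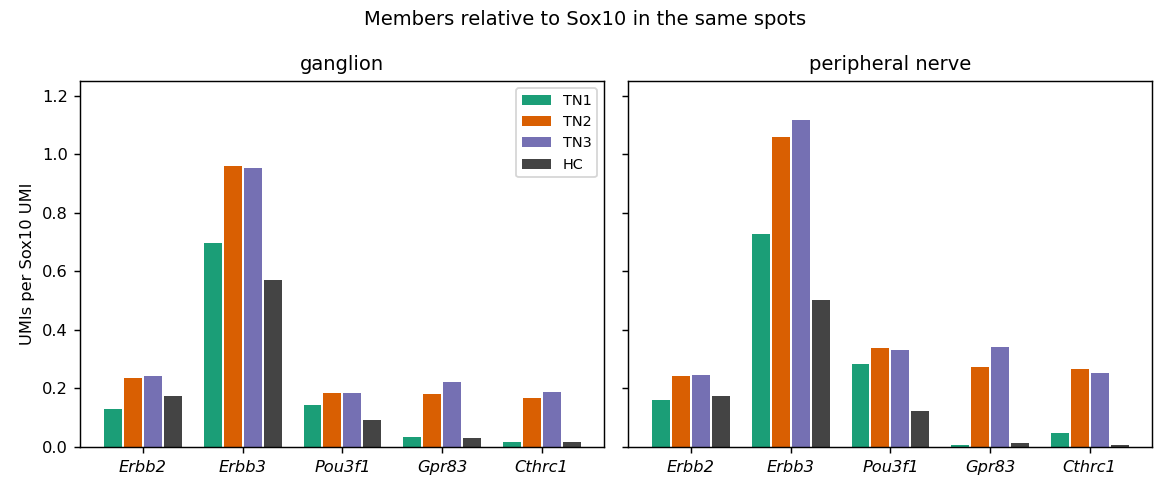
UMIs of 5 members per Sox10 UMI of the same spots (linear axis from 0), 1 bar per capture area, in the ganglion and the peripheral nerve. Erbb3 and Pou3f1 bars of the 3 TN areas stand above HC in both regions, and Gpr83 bars of TN1 and HC stay near 0 beside those of TN2 and TN3.

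How common such separations were across all genes sets their background. All 3 TN areas lay above HC for 28.7% of genes over all spots, close to the shares of the regions given above, while 29.9% lay wholly below HC in the ganglion and 30.6% over all spots. A fitted log2 difference of 1 or more was seen for 13% of genes over all spots, 8.69% in the ganglion and 14.5% in the nerve. Of the 8 members, 4 had all TN areas above HC over all spots (Erbb3, Erbb4, Pou3f1 and Cthrc1), 3 in the ganglion (Erbb3, Pou3f1 and Gpr83, the last by 3.72 against 3.70 CPM) and 4 in the nerve (Erbb2, Erbb3, Pou3f1 and Cthrc1). The members were chosen on this contrast, so nothing is read from those counts. With 3 areas against 1, edgeR's quasi-likelihood test called 0% of genes in each comparison: 0 of 14902 over all spots, 0 of 12782 in the ganglion and 0 of 11535 in the nerve, with 1271, 1356 and 2743 at an unadjusted p under 0.05. DESeq2 called 158, 140 and 840 on the same sums (1.06%, 1.1% and 7.28%). Without TN1, edgeR called 2171, 628 and 1040 (14.8%, 4.95% and 8.98%).

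The other genes of the pathway were taken from lists chosen with earlier results of these data known, and none of their genes passed edgeR's test with all 4 areas. For the list of other EGF family ligands, 3 of 8 genes were tested in the ganglion. Btc (betacellulin) was at 1.86, 5.24 and 7.59 CPM in TN and 1.40 CPM in HC, Hbegf at 24.8, 32.6 and 40.8 CPM against 23.0 CPM, and Tgfa at 17.6, 14.3 and 16.4 CPM against 22.8 CPM. The adjusted p was 0.48 for Btc, 0.54 for Hbegf and 0.48 for Tgfa. Of the proteases that release neuregulins, Adam17 was at 28.9, 53.4 and 56.3 CPM in the TN ganglia and 25.2 CPM in HC, and in the nerve at 53.9, 96.9 and 92.3 CPM against 29.4 CPM. Adam10 was at 3.25, 3.35 and 3.98 CPM in the ganglion of TN and 1.95 CPM in HC. Egfr, the receptor that heads the ErbB family, was too low to be tested in either region.

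Genes downstream of the receptors lay close to the background of all genes. The 26 ErbB signalling genes tested in the ganglion (adaptors, Ras-MAPK and PI3K-Akt genes) had a median log2 difference of 0.16 beside 0.05 over all genes, 17 above 0 and 9 below. In the nerve the median of 24 was 0.08 beside 0.05. Pik3cb, a catalytic subunit of PI3-kinase, was at 24.7, 23.2 and 26.8 CPM in the TN ganglia and 37.9 CPM in HC, and Map2k2 at 153, 174 and 116 CPM against 189 CPM. Among 9 genes of ErbB regulation the ganglion median was -0.02. Of the named regulation genes, Erbin, a scaffold that binds ErbB2, was at 14.6, 17.2 and 21.6 CPM in the TN ganglia and 10.96 CPM in HC. Errfi1, a feedback inhibitor of ErbB kinases, was at 28.9, 21.6 and 36.8 CPM against 18.2 CPM. Lrig3 was at 1.95, 2.62 and 2.50 CPM against 1.10 CPM. These genes were named because all TN areas lay on one side of HC, and they do not stand for the list. Without TN1, edgeR called 0 of the 26 signalling genes in the ganglion and 0 of 24 in the nerve, beside 4.95% and 8.98% of all genes, which for lists of this size is near the background.

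The repair Schwann list had a median log2 difference of 0.72 over 17 tested genes in the ganglion, 14 above 0, and 0.76 over 17 in the nerve, 12 above 0. Jun, the transcription factor that directs the repair state, was at 163, 289 and 189 CPM in the TN ganglia and 90.2 CPM in HC, and in the nerve at 107, 229 and 178 CPM against 66.9 CPM. Its adjusted p was 0.46 in the ganglion and 0.17 in the nerve by edgeR. Sox2, which holds Schwann cells short of myelination, was at 20.1, 88.8 and 84.7 CPM in the TN nerves and 22.4 CPM in HC, so TN1 again lay near HC. Ngfr (p75), a marker of Schwann cells without myelin, was at 554, 629 and 513 CPM in the TN ganglia and 581 CPM in HC, with HC inside the TN range. Ganglion spots mix neurons with other cells, and the region includes the TN-rich cluster led by Csrp3, Gal, Vip and Reg3b. Such spots do not assign Jun, Ngfr or the list to Schwann cells. Runx2 was at 2.04, 12.5 and 9.63 CPM in the ganglion of TN and 1.31 CPM in HC. Artn, a GDNF family ligand, and Ucn2 were low in HC, at 0.211 and 0.0423 CPM, and at 0.279 and 0.465 CPM in TN1. TN2 and TN3 held 3.93 and 1.94 CPM of Artn and 12.2 and 10.4 CPM of Ucn2. With all 4 areas, edgeR called no gene of this list. The counts that follow leave out TN1, which lay nearest to HC for Sox2, Runx2, Artn and Ucn2. Counts for the list without TN2 or without TN3 are not given here. The list was chosen with earlier results known, so no excess over all genes is read from these counts. Without TN1, 6 of 17 repair Schwann genes were called higher in the ganglion, and 5 higher and 1 lower in the nerve. Over all genes, 3.27% were called higher in the ganglion, and 4% higher and 4.98% lower in the nerve, under that setting.

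Nerve injury genes separated TN from HC in all 3 animals, TN1 included. The 8 genes had a median log2 difference of 4.80 in the ganglion, all above 0, and 6 of 6 tested were above 0 in the nerve. Csrp3 was at 44.6, 120 and 48.8 CPM in the TN ganglia and 0.719 CPM in HC, and Sprr1a at 8.55, 16.97 and 6.20 CPM against 0.0846 CPM. The neuropeptide gene Npy was at 3.16, 3.28 and 1.94 CPM in TN and had no UMI in HC. The adjusted p of these 3 genes was 0.36 by edgeR, which called no gene of this list with all areas. By DESeq2, 7 of the 8 genes were called higher, beside 0.853% of all genes in the ganglion. The list was chosen with earlier results of these data known, so no excess over all genes is read from that count. The ganglion region also includes the TN-rich cluster led by Csrp3, Gal, Vip and Reg3b. Levels of the list without that cluster, and its counts without TN1, are not given here. With that cluster included, TN1 carried the injury genes of the ganglion while its Gpr83 and Cthrc1 there were at the HC level.

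**Figure D5:**
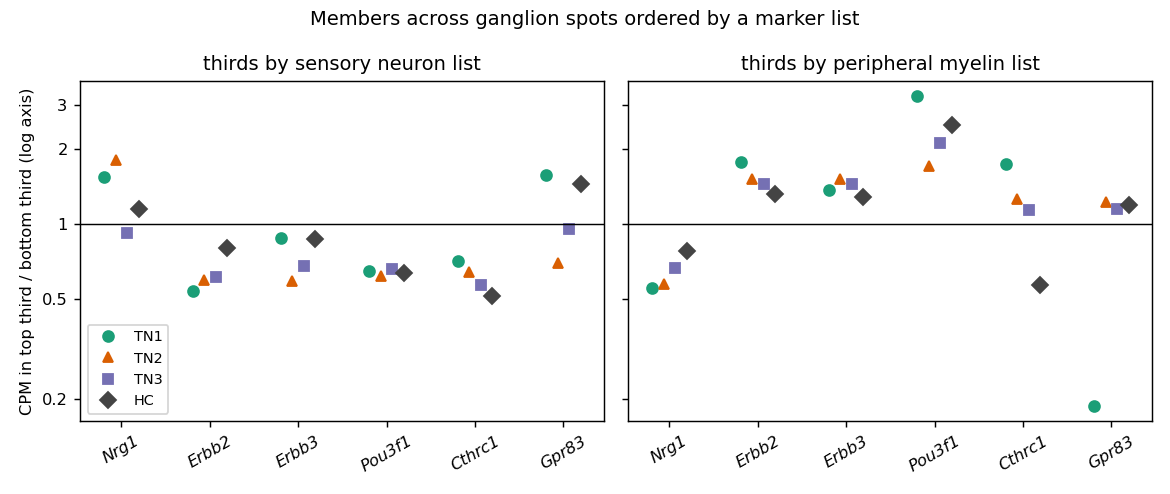
Ratio of CPM in the upper to the lower tertile of ganglion spots (log axis), ordered within each capture area by the share of sensory neuron list UMIs (left) or peripheral myelin list UMIs (right), 1 point per area. Pou3f1 lies below 1 on the left and above 1 on the right in all 4 areas, as do Erbb2 and Erbb3, while Nrg1 lies above 1 on the left in all areas but TN3 and below 1 on the right in all 4.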

How the data were processed

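Spatial libraries were made from 10x Genomics Visium capture areas. The authors ran Space Ranger (1.2.0) and STAR and deposited 1 table of UMI counts per gene and spot, raw and not normalized; the genome build is not given in the sources used here. Barcodes carry area numbers 1 to 4, which were assigned to TN1, TN2, TN3 and HC in the order of the series text; 2337 of 3573 barcode sequences recur between areas, as the slide's grid is reused.

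Spots were clustered without the members: SCTransform per area (sctransform 0.4.2), reciprocal PCA integration in Seurat 5.3.0 (R 4.3.3), 3000 features, 30 components, K-means with 10 clusters. A cluster took the name of the marker list with the highest mean centred log2(CPM + 5) if it led by at least 0.25; regions needed 20 spots in each area. Counts were summed per region and capture area, filtered with filterByExpr, scaled by TMM and tested with edgeR 4.0.16 (quasi-likelihood, Benjamini-Hochberg at 0.05 over all genes); DESeq2 1.42.0 was an alternative. TN against HC leaves 2 residual degrees of freedom and 1 HC sample, whose spread was taken to be that of the TN areas. On simulated counts, edgeR recovered 22.4%, 67.2% and 93.9% of genes changed by log2 1, 2 and 3 in the ganglion (12425 genes in that step), 7.46%, 59.7% and 89.4% in the nerve (11132 genes) and 2.99%, 35.8% and 71.2% over all spots (14528 genes). The simulated counts followed the fitted trend of the spread, with no TN area standing apart from the others. They do not give the recovery on the real areas, where edgeR called no gene at any size of difference. Member levels are plain CPM, and levels of list genes are TMM-scaled. Intervals are exact Poisson at 95%, and a count of 0 allows up to 3 counts. Named genes were the members, Jun, Ngfr, Sox2, Egr2, Sox10 and Egfr, up to 3 genes per pathway list with the largest ganglion difference and all TN areas on one side of HC, and the 3 genes most like each member with at least 500 UMIs; genes named beyond these serve to describe a region or list. Some genes that this rule names are not reported here. The members and lists were chosen with earlier results of these data known. The test of the connective tissue region was not run for want of spots.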

Additional observations from a re-analysis of the deposited data

Results flagged for a closer look

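Nrg2 stood on opposite sides of HC in different regions. In central myelin spots all 3 TN areas were above HC (2.42, 6.43 and 2.65 CPM against 1.77), and in the peripheral nerve all 3 were below it (0.594, 1.72 and 1.93 CPM against 3.54). They were also below HC in astrocyte spots (0, 3.11 and 2.70 CPM against 4.96). These levels rest on 0 to 13 UMIs each, and the difference was not tested.

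Nrdc, whose product assists neuregulin shedding, was above HC in the ganglion of all 3 TN areas (89.0, 80.5 and 74.6 CPM against 74.6, TMM-scaled, the lowest TN area leading by less than the last digit printed) and below it in the nerve (63.9, 65.4 and 62.0 CPM against 75.2), with fitted log2 differences of 0.13 and -0.24. The difference between the regions was not tested.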

How the results depend on the processing

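The count of genes called changed with the setting. Over all spots it was 0 with all 4 areas, 158 with DESeq2 and 0 to 2171 with 1 TN area left out, the highest without TN1. In the ganglion it was 0, then 140 with DESeq2, 3 with no filter on low counts and 3 to 628 with 1 TN area left out. In the nerve it was 0, then 840 with DESeq2, 793 with no filter, 245 with 12 clusters and 0 to 1040 with 1 TN area left out. The calls of 1040 and 628 are those without TN1; without TN2 the nerve gave 246. The 56, 84 and 63 recomputed member differences over all spots, the ganglion and the nerve moved by less than the SD of the TN areas. That SD is wide where TN1 stood apart, and leaving out 1 TN area could hardly move a value by more. The comparison with the SD therefore does not show that a member is stable. Gpr83 in the nerve ranged from 3.95 to 4.99 over the settings. Signs changed in 4 ganglion values, all of Nrg1 or Nrg2, whose ranges were -0.26 to 0.12 and -0.22 to 0.24. Leaving out the injury-led ganglion cluster, an alternative chosen after seeing the data, was among these. Other settings for the counts left them at 0. K-means without integration and marker lists per spot could not be used for the nerve. Without integration TN2 had 9 nerve spots and HC 17, and by marker lists TN2 had 14 and HC 102. The nerve levels of all members therefore rest on regions found after integration of the areas. Thinning spots to 2000 UMIs lowered 59 of 64 shares of spots beyond their interval. No paired analysis was possible because HC carries no replicate number and is 1 sample. Depth limited Erbb4 and Nrg2.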
